A study of Mus musculus with 10 samples.

Results

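Transcripts of 9 genes that set how long cytokine mRNA survives were followed in mouse macrophages that were, or were not, squeezed under a low ceiling. The genes were taken by symbol from a table of 57010 gene identifiers. Each symbol matched 1 row, and all 9 were among the 12455 genes tested, those whose normalized read counts averaged 10 or more. Series-wide, 10 RNA-seq libraries of bone marrow-derived macrophages were made. These are macrophages grown from marrow, here over 7 days with 20 ng/mL M-CSF, the growth factor that drives their differentiation. The animals were wild type (WT) or lacked WASp (WASp KO, written WKO here), an activator of branched actin assembly in blood cells that is encoded by Was. Confinement meant 1 h at a height of 3 µm under micropillars of the silicone PDMS.

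There were 4 groups. WT unconfined had 2 libraries (replicates 1 and 3), WT confined 3 (replicates 2, 3 and 6), WKO unconfined 2 (replicates 1 and 3) and WKO confined 3 (replicates 1, 2 and 5). Strain, age and the knockout allele are not given in the labels, and neither is whether unconfined cells were placed in the device. Nor do the labels say that replicates came from separate animals or cultures, so p-values measure only the spread between these libraries, which may be technical. Values are read counts scaled by the authors to a common depth, called normalized read counts below.

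Many cytokine mRNAs are short-lived because proteins that bind their 3′ untranslated region (3′ UTR) bring in the enzymes that destroy them. In macrophages this limits how much cytokine is made after a stimulus. Zfp36 encodes tristetraprolin (TTP), which binds AU-rich elements and recruits the CCR4-NOT deadenylase complex, and Zfp36l1 and Zfp36l2 encode its relatives. Zc3h12a and Zc3h12c encode the endoribonucleases Regnase-1 and Regnase-3, and Rc3h1 encodes Roquin-1, which binds stem-loops in the 3′ UTR. Btg1 and Btg2 encode small proteins that link CCR4-NOT to its targets and speed deadenylation. Elavl1 encodes HuR, which also binds AU-rich elements but mostly stabilizes the mRNA.

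The AU-rich element itself is present in several of these mRNAs, and a 30-base window is shown for each because TTP is known to act on such sites, including those of its own mRNA. The nonamer TTATTTATT was searched on the transcript strand of the 3′ UTR in GENCODE M21 (GRCm38). It was found in 5 of the 9 genes, against 7.60% of 20983 genes with a 3′ UTR. Most of the 9 have 3′ UTRs longer than the median of 954 bases, up to 7181 bases in Rc3h1, although those of Zfp36 (774) and Zc3h12a (856) are shorter. Capitals mark every nonamer that lies wholly within its window. In Elavl1 a further nonamer begins in the last bases shown, runs past the window and is left in lower case. The windows lie at chr7:28376950-28376979 (minus strand) for Zfp36, chr12:80108166-80108195 (minus) for Zfp36l1 and chr17:84184913-84184942 (minus) for Zfp36l2. Those of Rc3h1 and Elavl1 lie at chr1:160970043-160970072 (plus) and chr8:4285779-4285808 (minus). A window of Tnf, the best known target of TTP, at chr17:35199681-35199710 (minus), is given for comparison.
Zfp36: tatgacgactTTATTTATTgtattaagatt
Zfp36l1: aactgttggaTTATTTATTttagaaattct
Zfp36l2: actatttaacTTATTTATTatcttgtgaaa
Rc3h1: actttactcaTTATTTATTgagatgaggag
Elavl1: aaTTATTTATTTATTTATTTATTtttattt
Tnf: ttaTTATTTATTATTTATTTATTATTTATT
The first 4 genes hold 1 nonamer each, whereas Elavl1 holds 8 and Tnf 5, and some of these overlap. No nonamer was found in Zc3h12a, Zc3h12c, Btg1 or Btg2. The shorter core ATTTA was found in all 9, between 3 and 20 times each, and in 65.0% of all genes. A match is a description of the letters and not evidence of binding.

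Upstream sequence is shown for the 3 genes that rose in both genotypes, as described below, from the RefSeq promoter table (GRCm38.p6), which held 8 of the 9 genes. Each run is the 250 bases before the annotated start, 5′ to 3′ on the strand of the gene. It lies at chr7:28379229-28379478 (minus) for Zfp36, chr1:134079156-134079405 (minus) for Btg2 and chr4:125127882-125128131 (minus) for Zc3h12a. Capitals mark a CArG box in Zfp36, the element bound by serum response factor, and a cAMP response element in Btg2.
Zfp36: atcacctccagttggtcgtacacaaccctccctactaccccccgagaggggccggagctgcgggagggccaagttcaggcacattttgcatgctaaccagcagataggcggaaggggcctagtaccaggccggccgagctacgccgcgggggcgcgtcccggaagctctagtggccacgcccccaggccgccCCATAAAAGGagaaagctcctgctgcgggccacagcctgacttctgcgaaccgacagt
Btg2: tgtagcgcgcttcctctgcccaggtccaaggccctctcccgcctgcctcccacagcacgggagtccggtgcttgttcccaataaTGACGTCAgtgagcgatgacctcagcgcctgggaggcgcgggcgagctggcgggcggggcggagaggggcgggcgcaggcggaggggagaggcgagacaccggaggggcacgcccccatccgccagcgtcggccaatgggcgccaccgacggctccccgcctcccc
Zc3h12a: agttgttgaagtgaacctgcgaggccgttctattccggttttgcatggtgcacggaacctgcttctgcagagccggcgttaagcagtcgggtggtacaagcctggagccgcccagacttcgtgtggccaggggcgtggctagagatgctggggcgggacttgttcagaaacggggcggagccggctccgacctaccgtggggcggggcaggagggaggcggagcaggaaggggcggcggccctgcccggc
Of the motifs searched on both strands, 5 in all, Zfp36 held only the CArG box, 58 to 49 bases before the start, and Btg2 only the cAMP response element TGACGTCA, 166 to 159 bases before it. Among 32851 RefSeq promoters, with windows from 250 bases before to 50 after the start, these occur in 1.63% and 1.79%. The other motifs were the NF-kB site (8.46% of promoters), the AP-1 site TGANTCA (7.81%) and the TATA box TATAAA (13.6%). Zc3h12a and Elavl1 held none of the 5 in this window, which says only that these letters are not there. Zfp36l1 and Rc3h1 held an AP-1 site, Zfp36l1 and Btg1 a TATA box, and Zc3h12c an NF-kB site. CArG boxes and TATA boxes can share letters, but no TATA box was found in the Zfp36 window.

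Recovered read totals ranged from 13295701 to 19329908 per library. The targeted gene, Was, served to check the genotype labels and had 1308 to 1649 normalized read counts in WT and 96.9 to 154 in WKO libraries. All 10 macrophage markers were detected in every library, with a summed level of 193367 to 335976. WKO confined replicate 5 stood apart: 11 of 12 stromal marker genes were highest there, with a sum of 12417 against 1109 and 4019 in the other confined WKO libraries and 2806 and 3328 in unconfined WKO libraries. Stromal sums in WT were 245 to 2100, and neutrophil and progenitor marker sums were 2568 to 10900 in WT, 7000 in WKO confined replicate 5 and 21940 to 30143 in the other WKO libraries. B lineage sums were 414 to 892 in WT and 1613 to 5202 in WKO libraries. The part of these markers in the results was not tested, and in such bulk samples fewer cells of a type and less RNA per cell cannot be told apart. Log2 fold changes after confinement in WKO, and limma calls that use confined WKO cells, are therefore given with and without replicate 5.

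Zc3h12a, Btg2 and Zfp36 rose after confinement in WT cells, and these genes and Zc3h12c rose in WKO cells. The test was limma, a linear model with moderated variances, on log2(normalized read count + 1), with Benjamini-Hochberg adjustment over the 12455 genes and a threshold of 0.05. In WT 3 of the 9 passed, all higher, where 1.16% of all genes passed. In WKO 4 of the 9 passed, all higher, where 1.72% of all genes passed. The 9 genes were chosen with earlier results of these data known, so an excess over all genes is no independent evidence. Every one of the 9 had a positive log2 fold change in both genotypes, with medians of 0.84 in WT and 1.12 in WKO against -0.007 and -0.013 over all genes, and the WKO median was 0.69 without WKO confined replicate 5. Confined and unconfined libraries did not overlap for 9 of 9 genes in WT, where 18.3% of all genes were higher without overlap, and for 7 of 9 in WKO, where 14.5% were. Since all 4 groups share 1 estimate of the spread, leaving out WKO confined replicate 5 also moved the WT result, to 6 of 9 (Zfp36, Zfp36l2, Zc3h12a, Zc3h12c, Btg1 and Btg2), with 3.19% of all genes. In WKO it gave 5 of 9 (Zfp36, Zfp36l2, Zc3h12a, Zc3h12c and Btg2), with 1.93% of all genes. WKO confined replicate 1 moved the counts as well. Without it 6 of 9 passed in WT (Zfp36, Zc3h12a, Zc3h12c, Btg2, Rc3h1 and Elavl1), where 330 of all 12455 genes did. In WKO 7 of 9 then passed, these and Btg1, where 1043 of all genes did, against 214 with all libraries.

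**Figure D1:**
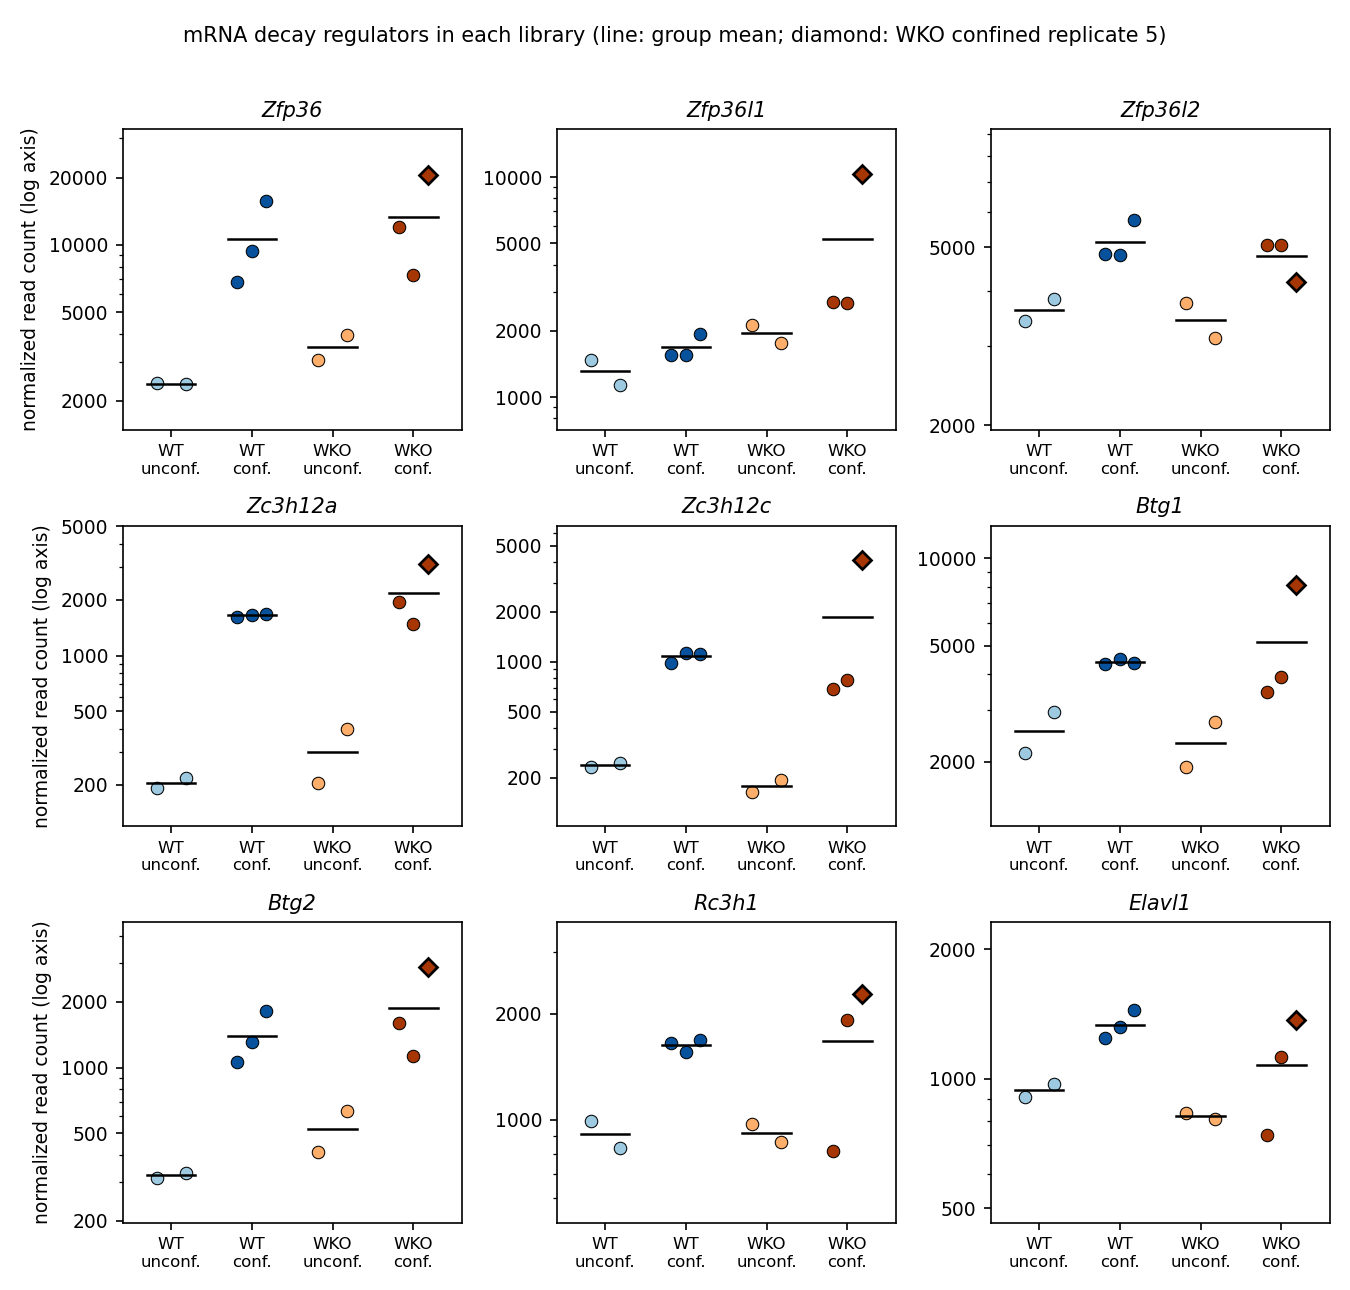
Normalized read count of each of the 9 genes in every library (log axis), with 1 panel per gene; points are libraries by group and horizontal bars are group means. Confined libraries lie above unconfined ones without overlap in every WT panel, and WKO confined replicate 5 is the highest library for Zfp36l1 (10313) and Zc3h12c (4118).

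Zfp36 (ENSMUSG00000044786, chr7:28376784-28380253, minus strand), the gene of TTP, was measured at 2401 and 2378 normalized read counts in unconfined WT cells. It was at 6835, 9422 and 15691 in confined WT libraries (replicates 2, 3 and 6). In WKO it was 3041 and 3926 without confinement and 12088, 7359 and 20629 with it (replicates 1, 2 and 5). Every confined library was above every unconfined one, and the confined groups were the most spread, with replicate 6 highest in WT and replicate 5 highest in WKO. The means went from 2389 ± 15.9 (SD, n = 2) to 10649.5 ± 4554 (SD, n = 3) in WT, a log2 fold change of 2.07 (SE 0.378, limma adjusted p 0.0235). In WKO the log2 fold change was 1.82 (SE 0.378, limma adjusted p 0.0336), and 1.45 without replicate 5 (limma adjusted p 0.0272). Both calls depended on single libraries. The WT call was lost without WT unconfined replicate 1 (limma adjusted p 0.165) or 3 (0.180), or WT confined replicate 3 (0.0808) or 6 (0.0799). The WKO call was lost without WKO unconfined replicate 1 (limma adjusted p 0.326) or 3 (0.168), WT unconfined replicate 1 (0.0647) or 3 (0.0638), or WT confined replicate 3 (0.0641).

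Its relative Zfp36l2 (ENSMUSG00000045817, chr17:84183931-84187947, minus strand) differed far less between the groups. It had 3422 and 3836 normalized read counts in unconfined WT, 4842, 4804 and 5753 in confined WT, 3759.8 and 3126 in unconfined WKO and 5076, 5066 and 4177 in confined WKO libraries. Confined libraries were higher without overlap in both genotypes, and replicate 5, the highest confined WKO library for Zfp36, was the lowest for Zfp36l2. The log2 fold change was 0.50 in WT (SE 0.135, 95% interval 0.20 to 0.79, limma adjusted p 0.127) and 0.47 in WKO (0.18 to 0.77, adjusted p 0.128). With DESeq2 it passed in both (adjusted p 0.0401 and 0.0491). Without replicate 5 both passed, at 0.50 in WT (limma adjusted p 0.0343) and 0.56 in WKO (0.0421).

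The third family gene, Zfp36l1 (ENSMUSG00000021127, chr12:80107754-80113013, minus strand), separated the genotypes more than the conditions. Unconfined WT libraries had 1478 and 1139 normalized read counts and confined ones 1551, 1556 and 1941. Unconfined WKO libraries had 2130.0 and 1768, and confined ones 2692, 2685 and 10313. All confined WKO libraries exceeded all other libraries, and replicate 5 was 3.83 times as high as the next one. Confinement gave a log2 fold change of 0.37 in WT (95% interval -0.61 to 1.34, limma adjusted p 0.802) and 1.12 in WKO (0.14 to 2.09, adjusted p 0.283), or 0.47 in WKO without replicate 5 (adjusted p 0.218). Of its exon bases, 55.9% overlap an exon of Gm26669, a non-coding gene on the opposite strand. Whether strand was used in counting is not given in the sources used here, which leaves the Zfp36l1 count uncertain. Gm26669 was not analysed here.

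Zc3h12a (ENSMUSG00000042677, chr4:125118423-125127840, minus strand), the gene of Regnase-1, had the largest fold change of the 9 in WT. Its normalized read count was 191 and 218 in unconfined WT libraries and 1613, 1653 and 1685 in confined ones. In WKO it was 203 and 401 without confinement and 1938, 1480.2 and 3148 with it. Confined WT libraries lay within a narrow band that was far above both unconfined groups, while the WKO libraries varied more in both conditions. Zc3h12a rose 8.07-fold by the means in WT (204 ± 19.0, n = 2, to 1650.3 ± 35.7, n = 3, SD) and 7.25-fold in WKO. The log2 fold changes were 3.01 (SE 0.299, limma adjusted p 0.000985) and 2.86 (SE 0.299, adjusted p 0.000837), and 2.57 in WKO without replicate 5 (adjusted p 9.64e-05). Among the 9 genes this was the only one that passed in both genotypes under every alternative run, including each library left out.

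Zc3h12c (ENSMUSG00000035164, chr9:52111344-52168572, minus strand), which encodes Regnase-3, had 232 and 247 normalized read counts in unconfined WT and 982, 1133 and 1113 in confined WT libraries. Unconfined WKO libraries had 164 and 193, and confined ones 686, 781 and 4118. Groups did not overlap in either genotype, and replicate 5 alone held a value 5.27 times that of the next confined WKO library. In WKO the log2 fold change was 2.87 (SE 0.558, limma adjusted p 0.0257) with replicate 5 and 2.04 (adjusted p 3.38e-05) without it. In WT it was 2.16 (SE 0.558, adjusted p 0.110), and its adjusted p became 3.31e-06 once WKO confined replicate 5 was left out and 0.0457 without WKO confined replicate 1. The WKO call was lost without WKO unconfined replicate 1 (limma adjusted p 0.247) or 3 (0.170), WT unconfined replicate 1 (0.0507), or WT confined replicate 2 (0.0506) or 3 (0.0503).

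Rc3h1 (ENSMUSG00000040423, chr1:160906418-160974978, plus strand), which encodes Roquin-1, had 989 and 833 normalized read counts in unconfined WT and 1656, 1553 and 1682 in confined WT libraries. In WKO it had 971 and 865 without confinement and 816, 1921 and 2269 with it. Groups did not overlap in WT, but WKO confined replicate 1 was below both unconfined WKO libraries. The log2 fold change was 0.84 in WT (95% interval 0.15 to 1.54, limma adjusted p 0.300) and 0.74 in WKO (0.04 to 1.43, adjusted p 0.328), or 0.45 without replicate 5 (adjusted p 0.605). Without WKO confined replicate 1 it passed in both genotypes. Its paralog Rc3h2, the gene of Roquin-2, had log2 fold changes of 0.80 in WT and 0.61 in WKO (limma adjusted p 0.369 and 0.442). Without replicate 5 Rc3h2 had 0.28 in WKO (limma adjusted p 0.795).

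Btg2 (ENSMUSG00000020423, chr1:134075170-134079120, minus strand), a deadenylation adaptor known as an early response gene, had 313 and 330 normalized read counts in unconfined WT libraries. It had 1066, 1303 and 1813 in confined WT, 413 and 632 in unconfined WKO, and 1592, 1135 and 2884 in confined WKO libraries. Groups did not overlap in either genotype, and the order of the 3 confined libraries of each genotype was the same as for Zfp36. Btg2 rose by a log2 fold change of 2.08 in WT (SE 0.334, limma adjusted p 0.0107) and 1.76 in WKO (SE 0.334, adjusted p 0.0228), and by 1.39 in WKO without replicate 5 (adjusted p 0.0102). The WT call was lost without WT unconfined replicate 1 (limma adjusted p 0.122) or 3 (0.0992), and the WKO call without WKO unconfined replicate 1 (0.292) or 3 (0.0688).

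Btg1 (ENSMUSG00000036478, chr10:96617006-96622809, plus strand) was the more abundant of the BTG pair. Its normalized read count was 2144 and 2969 in unconfined WT and 4337, 4522 and 4349 in confined WT libraries. In WKO it was 1918 and 2727 without confinement and 3483, 3912 and 8087 with it. Groups did not overlap in either genotype, and the confined WT libraries lay close together. The log2 fold change was 0.80 in WT (95% interval 0.16 to 1.45, limma adjusted p 0.280) and 1.07 in WKO (0.42 to 1.71, adjusted p 0.112), or 0.69 without replicate 5 (adjusted p 0.0698). With replicate 5 left out the WT change passed (limma adjusted p 0.0130), and without WKO confined replicate 1 the WKO change did.

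Elavl1 (ENSMUSG00000040028, chr8:4285382-4325413, minus strand), the gene of the stabilizing protein HuR, had the smallest change of the 9 in WKO. It had 906 and 973 normalized read counts in unconfined WT and 1247, 1319.8 and 1444 in confined WT libraries. Unconfined WKO libraries had 832 and 806, and confined ones 741, 1124 and 1371. Groups did not overlap in WT, while WKO confined replicate 1 was the lowest of all 10 libraries. The log2 fold change was 0.51 in WT (95% interval 0.06 to 0.95, limma adjusted p 0.334) and 0.35 in WKO (-0.09 to 0.80, adjusted p 0.466), or 0.16 without replicate 5 (adjusted p 0.817). As with Rc3h1, it passed in both genotypes without WKO confined replicate 1.

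**Figure D2:**
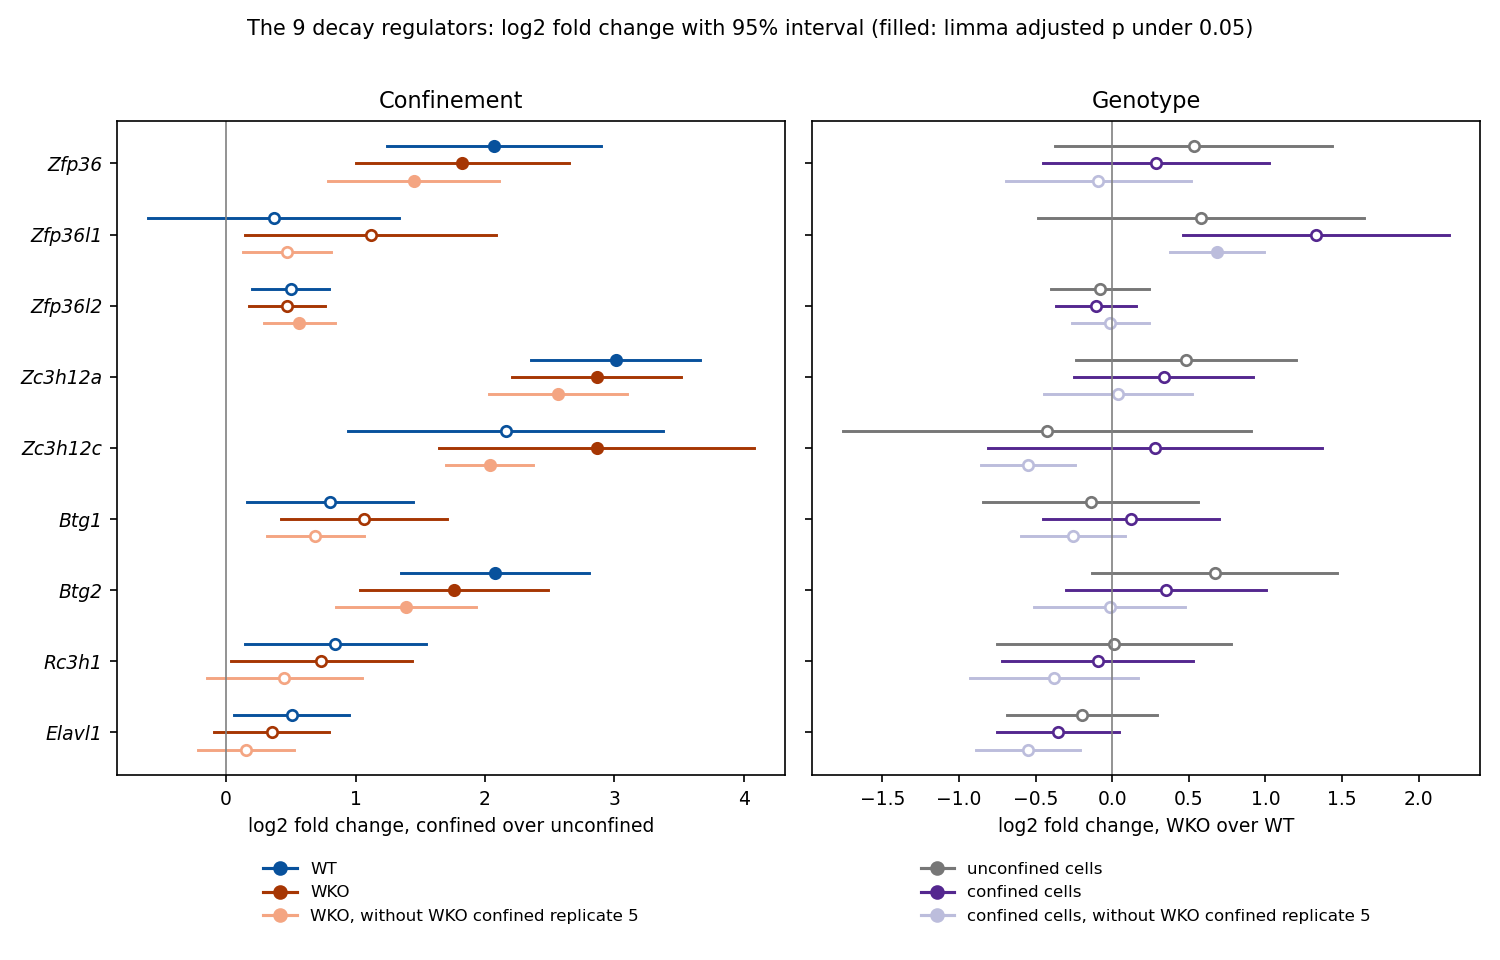
Log2 fold change of each of the 9 genes after confinement in WT and in WKO and for WKO against WT in each condition, with 95% intervals from limma and the same values without WKO confined replicate 5. Confinement estimates are all above 0 and reach 3.01 in WT (Zc3h12a) and 2.87 in WKO (Zc3h12c, with Zc3h12a at 2.86), and with all libraries the genotype intervals include 0 with the exception of Zfp36l1 in confined cells (0.46 to 2.20).

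Per library, the size of the response ranked the libraries similarly for the genes that rose. Relative to the unconfined mean of the same genotype, Zfp36 was 2.86, 3.94 and 6.57 times as high in WT replicates 2, 3 and 6. The corresponding ratios were 3.32, 4.06 and 5.64 for Btg2 and 7.89, 8.09 and 8.24 for Zc3h12a. Replicate 6 was thus the highest WT library for all 3 genes, but by a wide margin for Zfp36 and Btg2 only. In WKO replicates 1, 2 and 5 the ratios were 3.47, 2.11 and 5.92 for Zfp36, 3.05, 2.17 and 5.52 for Btg2 and 6.42, 4.90 and 10.4 for Zc3h12a. Replicate 2 was the lowest and replicate 5 the highest of the 3 confined WKO libraries for each of them. Zc3h12c did not follow this order, with ratios of 3.85, 4.38 and 23.1.

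WASp loss was compared next within each condition, which asks whether cells without WASp start from, or reach, another level of these transcripts. In unconfined cells 0 of the 9 genes passed with limma, where 0.145% of all genes passed, and 0 had an unadjusted p under 0.05. With edgeR and DESeq2 it was also 0. The groups did not overlap for 5 of 9 genes (3 higher and 2 lower in WKO), where 44.9% of all genes did not overlap in 1 direction or the other. Log2 fold changes of WKO against WT ran from -0.43 for Zc3h12c (95% interval -1.76 to 0.91) to 0.67 for Btg2 (-0.13 to 1.47). Without WKO confined replicate 5, which enters through the shared spread, 0 of 9 passed, where 1.13% of all genes did. These intervals leave room for differences of more than 2-fold in several genes.

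In confined cells 0 of the 9 passed with limma between the genotypes, where 2.59% of all genes passed, and 1 (Zfp36l1) had an unadjusted p under 0.05. With edgeR 0 passed, and with DESeq2 1 did, Zfp36l1 (log2 fold change 1.64, adjusted p 0.0477). Only for Zfp36l1 did the groups not overlap, where 21.1% of all genes did not. Its log2 fold change of WKO against WT was 1.33 (95% interval 0.46 to 2.20, limma adjusted p 0.105). With replicate 5 left out 1 of 9 passed, where 3.36% of all genes did. This gene was again Zfp36l1, at 0.68 (0.38 to 0.99, limma adjusted p 0.0207), with group means of 1683 in WT and 2688 in WKO. Without WKO confined replicate 1 it was also the only 1 of the 9 to pass (1.65, limma adjusted p 0.0449), where 701 of all 12455 genes did. The stromal marker sum was higher in the confined WKO libraries (1109, 4019 and 12417) than in the confined WT ones (299, 245 and 942), and its part in the Zfp36l1 difference was not tested. The other 8 genes had log2 fold changes from -0.35 for Elavl1 (-0.75 to 0.05) to 0.35 for Btg2 (-0.30 to 1.00). Zc3h12c went from 0.28 (limma adjusted p 0.844) to -0.55 (adjusted p 0.0550) when replicate 5 was left out. Without it Elavl1 was at -0.55 too (limma adjusted p 0.0850), while the other 6 lay between -0.38 (Rc3h1) and 0.04 (Zc3h12a).

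The difference between the confinement effects, WKO minus WT, passed limma for 0 of the 9 genes and for 0% of all genes, and 0 of the 9 had an unadjusted p under 0.05. With edgeR and DESeq2 0 of the 9 passed as well. It did so for 0 of 9 and 0% of all genes without replicate 5 as well. The estimates ran from -0.32 for Btg2 (95% interval -1.35 to 0.71) to 0.75 for Zfp36l1 (-0.63 to 2.13), with a limma adjusted p of 0.999 for each gene. Their median was -0.11, and 3 of 9 were positive. Without WKO confined replicate 5 they ran from -0.69 for Btg2 to 0.10 for Zfp36l1, with a median of -0.35 and 2 of 9 positive. Zc3h12c went from 0.70 to -0.13 and Btg1 from 0.26 to -0.11. With all libraries the estimates were -0.15 for Zc3h12a (-1.07 to 0.78) and -0.25 for Zfp36 (-1.41 to 0.92), which like Btg2 rose in both genotypes. Whether the response of any of these genes differs with WASp is therefore not resolved at these sizes.

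Levels of different genes were compared as normalized read counts per kilobase of exons (group means). In unconfined WT cells Zfp36l2 was highest at 1028 per kb, followed by Zfp36 (689), Btg1 (485) and Zfp36l1 (438). Btg2 (117), Elavl1 (90.7), Rc3h1 (80.6), Zc3h12a (70.9) and Zc3h12c (34.9) lay well below these. Btg1 and Zfp36l1 differed by less than the SD of Btg1 (111 per kb, n = 2), and Rc3h1 and Zc3h12a by less than the sum of their SDs (9.75 and 6.60). In confined WT cells Zfp36 led at 3069 per kb, ahead of Zfp36l2 (1454), Btg1 (834), Zc3h12a (573), Zfp36l1 (563) and Btg2 (508). Zc3h12a thus moved from the eighth place to the fourth, although it, Zfp36l1 and Btg2 differ by less than the spread of Btg2 there. Zc3h12c (157), Rc3h1 (144) and Elavl1 (129) stayed at the bottom. In WKO cells the order began with Zfp36 both without (1004) and with confinement (3850), and Zfp36l2 was at 975 and 1352. In unconfined WKO this order was within the SD of Zfp36 (180 per kb, n = 2) and differed between libraries, with Zfp36 at 876 and Zfp36l2 at 1065 per kb in replicate 1. With confinement the WKO means included 5945 per kb for Zfp36 in replicate 5, against 3483 and 2121 in replicates 1 and 2.

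Within the TTP family the make-up shifted toward Zfp36. On the per-kilobase scale it was 32.0% of the family sum in unconfined WT and 58.9% in confined WT cells (51.0 to 66.5% over libraries), and 38.2% and 54.6% in WKO (47.6 to 59.8% when confined). The family sum went from 2154 to 5086 per kb in WT and from 2631 to 6951 per kb in WKO, where replicate 5 held 10577 and replicates 1 and 2 held 5822 and 4454, while the share of Zfp36l2 went from 47.7% to 29.7% and from 37.0% to 22.7%. Among the Regnases, Zc3h12a was 66.9% of the pair in unconfined and 78.5% in confined WT cells, and 78.9% and 77.8% in WKO, where replicate 5 had the lowest share (64.5%). Btg2 was 19.8% of the BTG pair in unconfined and 37.4% in confined WT cells, and 30.1% and 41.1% in WKO. These shares were not tested and describe the group means.

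**Figure D3:**
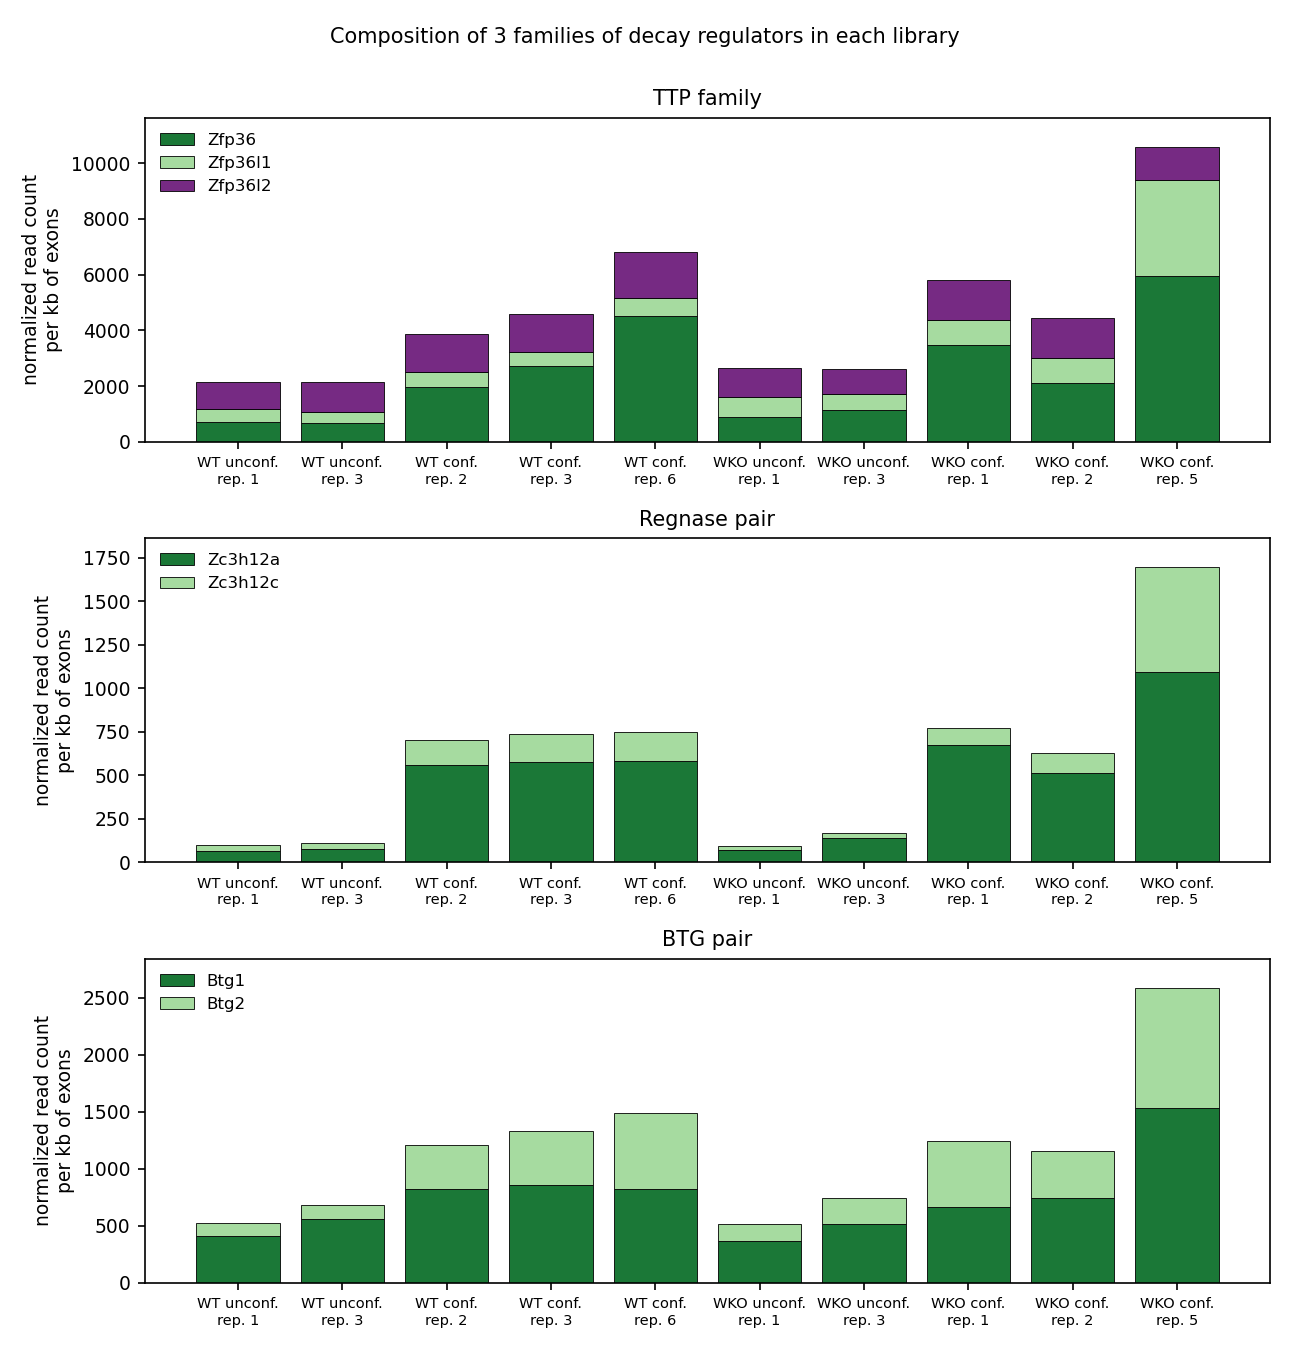
Stacked bars of the per-kilobase normalized read counts of the TTP family, the Regnase pair and the BTG pair in each library, by group. Zfp36 is the largest segment of the TTP family in the confined groups (58.9% in WT, 54.6% in WKO) but not in unconfined WT cells (32.0%).

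The wider families were examined from fixed lists, which were drawn up with earlier results of these data known. Of the BTG and TOB genes outside the 9, 2 of 3 tested passed in both genotypes. Over all genes 1.16% passed in WT and 1.72% in WKO. With edgeR 1 of these 3 passed in WT and 2 in WKO. Tob1, which like Btg2 recruits the CCR4-NOT deadenylase, had 224 and 207 normalized read counts in unconfined and 630, 438 and 684 in confined WT libraries. In WKO it had 212 and 187 without and 876, 925 and 1012 with confinement. Groups did not overlap, and Tob1 rose by 1.41 in WT (limma adjusted p 0.00383) and 2.23 in WKO (0.000259). Between the confined genotypes it was higher in WKO (log2 fold change 0.71, limma adjusted p 0.0483), a call that was lost without replicate 5 (0.65, adjusted p 0.0837). Tob2 rose by 0.98 (adjusted p 0.0474) and 1.67 (0.00214). Without replicate 5 the WKO values were 2.17 for Tob1 and 1.72 for Tob2 (limma adjusted p 7.43e-05 and 0.000992). Btg3, at means under 50 in all groups, had log2 fold changes of 0.39 and -0.11 (adjusted p 0.859 and 0.961). Without replicate 5 Btg3 had -0.76 in WKO (limma adjusted p 0.677). Zfp36l3, Zc3h12b and Btg4 were below the filter.

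The enzymes to which these regulators hand their targets gave few calls in any test. For CCR4-NOT and other deadenylases and poly(A)-binding proteins 0 of 16 genes passed with limma in either genotype. Over all genes 1.16% passed in WT and 1.72% in WKO, so 0 calls in lists of this size say little. Median log2 fold changes were 0.01 in WT and 0.03 in WKO, or -0.06 in WKO without replicate 5. Of the 16 genes, 1 in WT and 4 in WKO had an unadjusted p under 0.05, where 1523 and 1758 of all 12455 genes did. DESeq2 called 1 of them in WT. The extremes in WT were Cnot4 (-0.25) and Pabpc4 (0.43). Of decapping and 5′ decay genes 0 of 19 passed (2 in WT and 5 in WKO at an unadjusted p under 0.05). Their medians were 0.03 and 0.01, or 0.04 in WKO without replicate 5. The highest was the decapping helicase Ddx6 at 0.51 in WT and 0.57 in WKO (limma adjusted p 0.391 and 0.273). Without replicate 5 Ddx6 had 0.37 in WKO, below Dcp1a of the same list (0.46). Exosome and 3′ decay genes gave 0 of 15 tested (1 in WT and 0 in WKO at an unadjusted p under 0.05), with medians of -0.04 and -0.14. Without replicate 5 the WKO median was 0.04, and 8 of the 15 genes were positive, against 3 with it. Beside the 1 call by DESeq2, neither edgeR nor DESeq2 called any gene of these 3 lists. The limma counts were also 0 without replicate 5.

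Other proteins that bind AU-rich or stem-loop elements gave 1 of 14 in each genotype outside the 9. Over all genes 1.16% passed in WT and 1.72% in WKO. The 1 gene was Arid5a, whose product protects Il6 mRNA from Regnase-1. It had 122 and 96.0 normalized read counts in unconfined and 415, 304 and 399 in confined WT libraries, and 118 and 224 against 410, 420 and 607 in WKO. The groups did not overlap in either genotype, and Arid5a rose by 1.76 in WT (limma adjusted p 0.00963) and 1.53 in WKO (0.0178), or 1.34 in WKO without replicate 5 (0.0228). Between the confined genotypes, where 2.59% of all genes passed, 1 gene of this list did, Igf2bp2, whose product stabilizes the mRNAs it binds. It had 2320.4, 2349 and 2764 normalized read counts in confined WT and 1377, 1629 and 1258 in confined WKO libraries, without overlap. Igf2bp2 was lower in WKO (log2 fold change -0.81, limma adjusted p 0.0108, or -0.72 and 0.0107 without replicate 5). In unconfined cells it was lower in WKO too (1498 and 1436 against 2345 and 1858 in WT). The groups did not overlap there, as for 44.9% of all genes, and 0 genes of this list passed. In the list of p38 and MK2 signalling, which phosphorylates and restrains TTP, 1 of 12 passed in WT and 2 of 12 in WKO. Dusp1, the phosphatase that turns p38 off, rose by 2.18 in WT (limma adjusted p 0.0290) and 1.90 in WKO (0.0436), but had 1.56 in WKO without replicate 5 (0.0559). Map2k3, a kinase upstream of p38, rose by 0.86 in WKO (adjusted p 0.0192, or 0.75 and 0.0211 without replicate 5) and had 0.71 in WT (0.0593, or 0.0125 without WKO confined replicate 5). Of 10 genes that control Regnase-1, 0 passed with limma in WT (1 at an unadjusted p under 0.05, 0 with edgeR and 1 with DESeq2) and 1 in WKO, the protease gene Malt1 (log2 fold change 1.28, limma adjusted p 0.0313, or 0.93 and 0.00231 without replicate 5). Malt1 had 0.87 in WT (adjusted p 0.166, or 0.00109 without WKO confined replicate 5).

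**Figure D4:**
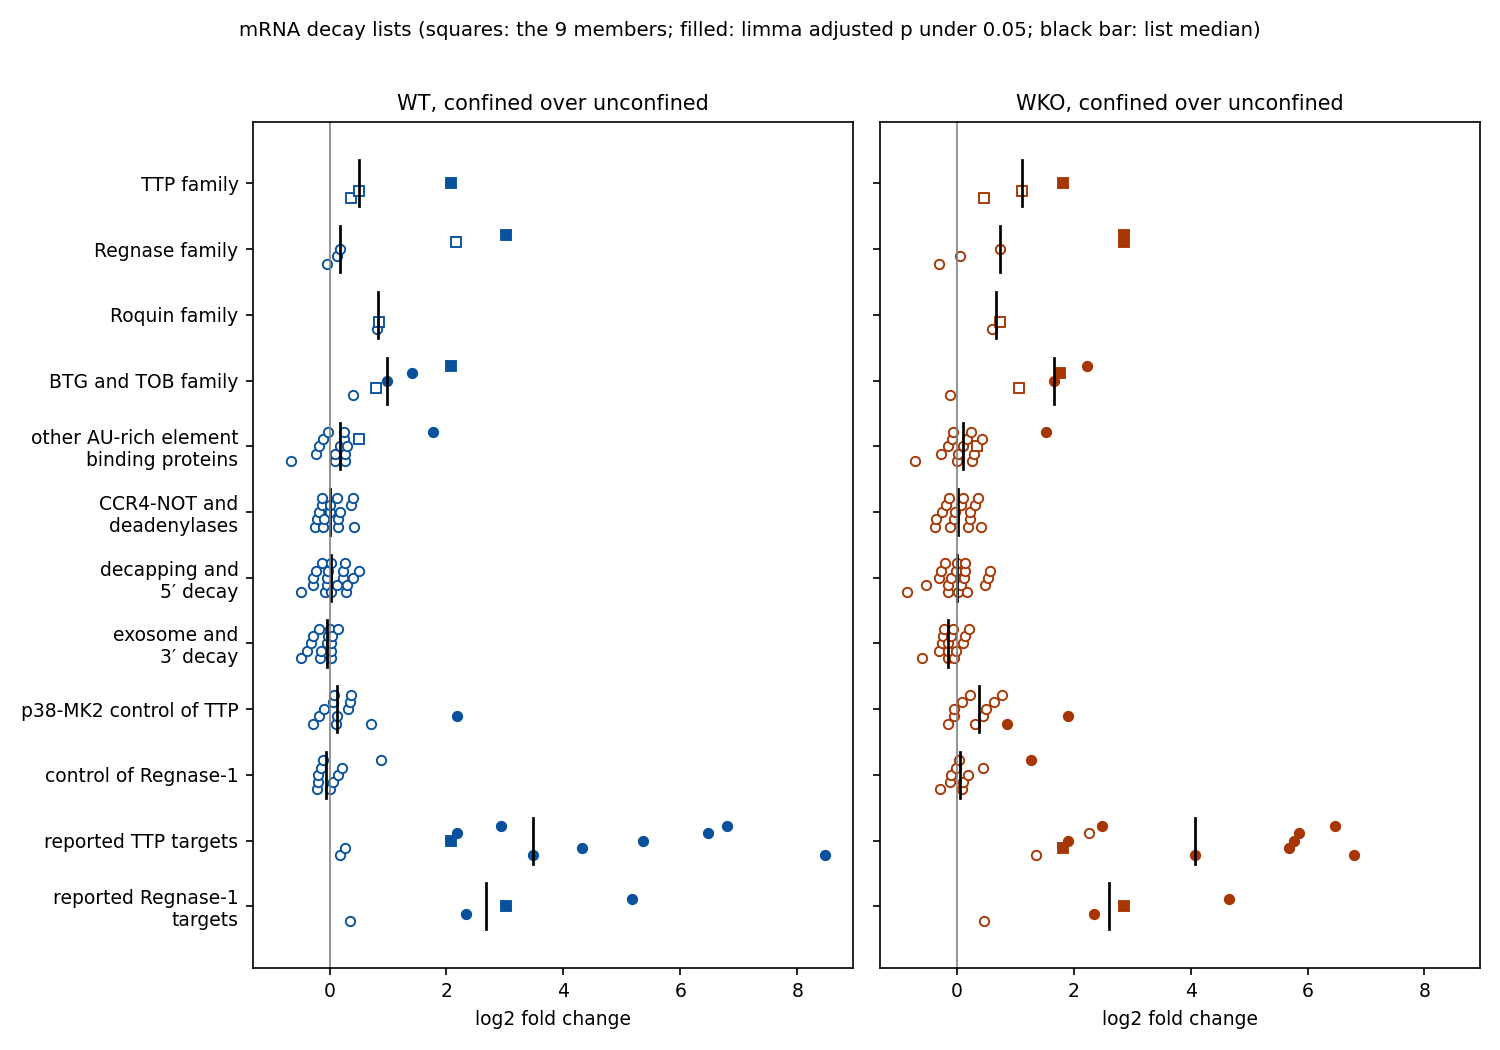
Log2 fold change after confinement of every tested gene of the fixed lists in WT and in WKO, by list; each point is 1 gene, squares are the 9 regulators, bars are list medians, and genes with a limma adjusted p under 0.05 are drawn filled. The deadenylase, decapping and exosome lists are centred near 0 (medians from -0.14 to 0.03, or -0.06 to 0.04 in WKO without replicate 5) with no filled point. The reported targets of TTP lie far to the right (medians 3.49 in WT and 4.08 in WKO, or 3.17 in WKO without replicate 5). Replicate 5 is included in the plot.

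Transcripts known as targets of these proteins were among the genes with the largest changes, and the target lists were drawn up with earlier results of these data known, so that their direction is no independent evidence. Of 11 reported TTP targets tested, 9 passed in each genotype, or 8 in WKO without replicate 5, where Dusp1 was lost. Zfp36 and Dusp1 are themselves in this list. Tnf was at 71.2 and 69.1 normalized read counts in unconfined WT and at 3293, 5719 and 13389.5 in confined WT libraries. In WKO it was at 32.6 and 124 without and 4583, 2368 and 17188 with confinement. All confined libraries were far above all unconfined ones, and the order of the confined libraries was that of Zfp36. Tnf rose by 6.47 in WT (limma adjusted p 0.00260) and 6.46 in WKO (0.00132), or 5.67 in WKO without replicate 5. Among the chemokine genes, Cxcl1 rose by 8.48 and 5.77 and Cxcl2 by 6.80 and 6.79 in WT and WKO, and without replicate 5 the WKO values were 5.03 and 5.98. Unconfined Cxcl1 was at 1.90 and 3.84 normalized read counts in WT, near the value of 3 reads (2.85 and 2.88 there). In unconfined WKO it was at 12.8 and 35.1. The size of its WT change, and its gap to WKO, thus rest in part on the 1 added before the log. Il1b rose by 5.36 and 5.68 and Ptgs2, the gene of cyclooxygenase-2, by 4.32 and 5.85, with 4.64 and 5.27 in WKO without replicate 5. The limma adjusted p of these 4 genes was at most 0.00584 in either genotype. The log2 fold change of Il10, an anti-inflammatory cytokine, was 3.49 in WT (limma adjusted p 0.0345) and 4.08 in WKO (0.0123), or 3.17 in WKO without replicate 5 (0.000899), which had 1921 normalized read counts against 408 and 204. Ccl2 had 0.19 and 1.35 and Ccl3 0.26 and 2.26, with limma adjusted p between 0.175 and 0.933. Without replicate 5 the WKO values were 0.71 and 1.39 (limma adjusted p 0.570 and 0.242). Of 9 reported Regnase-1 targets only 4 were above the filter and tested. Of these 3 passed in each genotype: Zc3h12a itself, Nfkbiz (5.18 and 4.66) and Rel (2.33 and 2.34). Without replicate 5 the WKO values were 3.84 for Nfkbiz and 1.88 for Rel, which both still passed. Levels of RNA alone do not give a decay rate, and neither decay nor protein was measured.

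Genes were also ranked by how closely their log2 values followed each of the 9 over the 10 libraries, among 10216 genes with a mean of at least 50. Pearson's r is given as a description, since all values share the libraries and the confinement contrast. Zfp36 was followed most closely by Dusp1 (0.994), Btg2 (0.992) and Csrnp1 (0.983), and Btg2 by Socs3 (0.994), Zfp36 (0.992) and Nfkbiz (0.989). Closest to Zc3h12a were Gem (0.995), Junb (0.992) and Pim1 (0.991), and closest to Zc3h12c were Sod2 (0.996), Ppp2r2d (0.989) and Zswim4 (0.989). Zfp36l1 had other neighbours, Gja1 (0.979), Ifi211 (0.967) and Ifi207 (0.957). Like Zfp36l1, these stood out in WKO confined replicate 5. Gja1 had 386 normalized read counts there and at most 82.9 elsewhere, and Ifi207 had 8528 and at most 3764. Sod2, the closest to Zc3h12c, had 3545 there and at most 1699 elsewhere. How far r rests on this library was not tested. The neighbours of Zfp36l2 were Hdac2 (0.959), Nfe2l1 (0.946) and Alyref (0.944). Btg1 lay closest to Itpkb (0.972), Zswim4 (0.970) and Skil (0.968), Rc3h1 to Prrc2c (0.990), Ddx6 (0.985) and Cd47 (0.983), and Elavl1 to Cdv3 (0.979), Acsl4 (0.974) and Gatad2a (0.972). Among the 9 themselves r was highest between Zfp36 and Btg2 (0.992) and lowest between Zfp36l1 and Zfp36l2 (0.134).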

How the data were processed

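RNA-seq was carried out on 10 libraries, and the members and gene lists were chosen with earlier results of these data known. The authors deposited a signal per gene, the normalized read count, for each library. The submitters' processing notes name FastQC, Trim Galore, STAR and GRCm38/mm10; versions, the counting tool, annotation and strand use are not given in the sources used here. Whole reads were recovered from 100% of the values (tolerance 0.001 reads), and totals were 13295701 to 19329908 per library. At this depth 3 reads, taken as the floor, correspond to 2.35 to 3.59 normalized read counts, which covers counting error only. The values were read counts divided by median-of-ratios size factors.

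Genes with a mean of at least 10 were tested (12455 of 57010) as log2(value + 1) with limma 3.58.1 in R 4.3.3, with a mean-variance trend, 1 mean per group, all 10 libraries and 6 residual degrees of freedom. Fold changes on this scale understate the change of low genes. There were 5 contrasts: confinement in each genotype, WKO against WT in each condition, and the difference of the confinement effects. Alternatives were edgeR 4.0.16 and DESeq2 1.42.0 on the recovered reads, other scalings, filters and pseudocounts, array weights, no trend, a replicate block and each library left out. The fits were tested on simulated data.

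All 9 members are named. Of each fixed list, up to 5 genes with the smallest p among those that passed in a contrast could be named, and so were the 3 genes most like each member. Btg3, Pabpc4, Cnot4, Ddx6, Rc3h2, Il10, Ccl2, Ccl3, Csf2, Il6 and Il23a were picked for display after their values were seen. Gene positions and 3′ UTRs came from GENCODE M21 (GRCm38) and promoters from RefSeq. Overlap of exons with other genes was at most 3.60% for members other than Zfp36l1. No replicate pair agreed within sampling noise (chi-square per degree of freedom 7.56 to 78.3).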

Additional observations from a re-analysis of the deposited data

How the results depend on the processing

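No confinement effect of the 9 genes changed direction under any alternative, in WT or in WKO. In WT 3 of the 9 genes passed in the reported fit, where 144 of all 12455 genes did. It was 1 without the mean-variance trend (Zc3h12a), where 20 of all genes passed, and 6 with array weights, where 419 did. With only the groups compared it was 8 (all but Zfp36l1), where 455 of all genes passed. With the replicate block it was 5, where 216 did. Leaving out single confined libraries, it was lowest at 2 without WT replicate 3 or 6, where 60 and 66 of all genes passed. It was highest at 6 without WKO replicate 1 or 5, where 330 and 397 did. In WKO 4 passed in the reported fit, where 214 of all genes did. It was 1 without the trend and 1 with only the groups compared (Zc3h12a in both), where 45 and 33 of all genes passed. With array weights it was 8 (all but Zfp36l1), where 1735 of all genes passed. Leaving out single confined libraries, it was lowest at 2 without WT replicate 3, where 126 of all genes passed. It was highest at 7 without WKO replicate 1, where 1043 did. Between genotypes 0 passed in the reported fit, where 18 of all genes did in unconfined and 322 in confined cells. In unconfined cells 1 passed with the replicate block, where 245 of all genes did. In confined cells 1 passed with DESeq2 (775 of all genes), array weights (1948) or the replicate block (294). Leaving out single confined libraries gave 0 to 1 in confined cells. The gene was Zfp36l1 each time. With TMM and upper-quartile scaling and edgeR no count moved past the margin used to mark a change. For confinement a step of 1 gene from the reported 3 or 4 lies within that margin. DESeq2 gave 4 in WT and 5 in WKO through Zfp36l2, where 332 and 484 of all genes passed. Counts with other filters and pseudocounts are not listed. Over all 22 alternatives, single libraries left out included, Zfp36 passed in 16 in WT and 14 in WKO. The replicate number is shared by label only: same-numbered libraries did not deviate together (correlations -0.11 to 0.08), and the replicate block leaves 2 residual degrees of freedom and drops WT confined replicate 6 and WKO confined replicate 5, whose numbers occur once.

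Small genotype differences changed sign. In confined cells array weights gave -0.24 for Zfp36, -0.0497 for Zc3h12a, -0.30 for Zc3h12c, -0.11 for Btg1, -0.10 for Btg2 and 0.19 for Rc3h1; the replicate block gave 0.0506 for Zfp36l2, -0.42 for Zc3h12c and -0.0444 for Btg1; edgeR and DESeq2 gave 0.0191 and 0.0345 for Rc3h1. With single libraries left out the values there ran from -0.0895 to 0.65 for Zfp36, -0.55 to 0.74 for Zc3h12c, -0.25 to 0.35 for Btg1, -0.0176 to 0.65 for Btg2 and -0.38 to 0.36 for Rc3h1. In unconfined cells they ran from -0.21 to 0.0535 for Zfp36l2, -0.00508 to 0.97 for Zc3h12a, -0.40 to 0.11 for Btg1 and -0.11 to 0.14 for Rc3h1. The difference of the confinement effects became 0.0685 (array weights) and 0.13 (replicate block) for Zfp36l2, and 0.0028 (edgeR), 0.0215 (DESeq2) and 0.17 (array weights) for Rc3h1. Leaving out single libraries it ran from -0.62 to 0.12 for Zfp36, -0.16 to 0.11 for Zfp36l2, -0.63 to 0.34 for Zc3h12a, -0.13 to 1.16 for Zc3h12c, -0.11 to 0.52 for Btg1, -0.39 to 0.34 for Rc3h1 and -0.35 to 0.0934 for Elavl1. The cause of these changes was not tested.

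Each of the 9 genes had over 100 normalized read counts in every library, far above the value of 3 reads.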

Other observations

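Some reported targets of tristetraprolin stayed below the filter on low values and entered no test. Csf2, whose 3′ UTR holds 4 nonamers, had 0 normalized read counts in all 4 unconfined libraries. In confined libraries it had 0, 3.52 and 17.7 in WT (replicates 2, 3 and 6) and 5.49, 1.05 and 59.9 in WKO (replicates 1, 2 and 5). Il6 was at 0 to 0.96 in unconfined libraries, 1.07 to 2.35 in confined WT and 23.5, 0 and 44.3 in confined WKO. The value of 3 reads is 2.35 to 3.59, so Il6 was under this floor in all unconfined and confined WT libraries and in 1 confined WKO library. Il23a had at most 5.99, in WKO confined replicate 5.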
